A study of Mus musculus with 4 samples.

Results

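Mouse embryonic stem cells (ESCs) depleted of *Ythdf2* and given a YTHDF2 whose m6A-binding site was mutated (shYthdf2+DF2Mut) were compared with the same knockdown carrying an empty vector (shYthdf2+EV). The question was what YTHDF2 that cannot bind m6A still changes in the transcriptome of the knockdown. Genes were taken by their count alone, with a mean of at least 50 reads over the 4 libraries of the series, which kept 13995 of the 50559 genes in the table. All libraries were poly(A)+ RNA-seq of the E14 ESC line, grown on gelatin in serum replacement with leukemia inhibitory factor (LIF). Each group had 1 library. Both libraries of the comparison carried the hairpin against *Ythdf2*, and they differed in the construct that was added. The other libraries came from cells with a scrambled hairpin and the empty vector (shScram+EV), and from *Ythdf2* knockdown cells rescued by wild-type YTHDF2 (shYthdf2+DF2WT). Per the study's text, hairpins were delivered by lentivirus with puromycin selection and rescue constructs by transfection, into knockdown lines that it describes with a tdTomato reporter driven by the MERVL promoter, where the labels name E14 only. The share of cells that carried a construct, the hairpin used and the mutated residue are not given in the sources used here. All differences given here are therefore between single libraries with no replicate check, no test was possible, and the 95% intervals, computed on read pairs, cover counting error only.

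YTHDF2 is a cytoplasmic reader of N6-methyladenosine (m6A), the most common internal modification of mRNA. Its YTH domain holds the methylated base, and the rest of the protein brings the CCR4-NOT deadenylase, which shortens poly(A) tails and starts decay. A YTH domain that no longer holds m6A separates these activities, because the protein can still be made and can still meet its partners. In ESCs, YTHDF2 is of interest for the 2-cell-like (2C-like) state, a rare state that switches on transcripts of the 2-cell embryo.

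Total counts were between 31533129 and 35742335 reads per library, and 3 reads, taken as the floor, stood for 0.0839 to 0.0951 CPM. Markers of ESCs were high in both compared libraries: *Pou5f1* stood at 576 FPKM (a level adjusted for exon length and depth) in the knockdown and 556 in the mutant, *Nanog* at 383 and 403, *Sox2* at 160 and 150, *Esrrb* at 146 and 142, and *Klf4* at 31.4 and 32.0. Some properties of the libraries bear on what follows. Mitochondrial genes took 8.44% of the reads in the scrambled control and 6.75%, 6.34% and 6.14% in the knockdown, wild-type rescue and mutant libraries. The Y-linked gene *Ddx3y* had 2 reads in the scrambled control, 261 in the knockdown, 26 in the wild-type rescue and 197 in the mutant. *Eif2s3y* and *Uty* were at 0 in the scrambled control, at 225 and 106 reads in the knockdown, at 35 and 24 in the wild-type rescue and at 218 and 111 in the mutant. The knockdown and mutant libraries were therefore alike in their Y-linked reads, and the other libraries were not.

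The construct was expressed. *Ythdf2* (chromosome 4, 131912227 to 131939567, minus strand, mm39) had 2806 reads in the scrambled control, 662 in the knockdown, 7661 in the wild-type rescue and 6925 in the mutant. The mutant library held 11.8-fold more *Ythdf2* reads than the knockdown after scaling, a log2 ratio of 3.56 (95% counting interval 3.40 to 3.73). It also exceeded the scrambled control by 1.29 (1.20 to 1.38) on the log2 scale, and lay below the wild-type rescue by a log2 ratio of -0.10 (-0.16 to -0.03). Counts were summed over the whole gene, so endogenous and transfected copies cannot be told apart. Total *Ythdf2* mRNA was thus close in the mutant and wild-type rescue libraries, and protein was not measured in these data.

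Beyond *Ythdf2* itself, the mutant library differed little from the knockdown. Of the 13995 genes, 94.6% lay within 1.5-fold of the knockdown, and the median log2 ratio was 0.01. A gene was called when its ratio was at least 2-fold and its counting interval excluded 0. By this rule 41 genes (0.293% of those compared) were higher in the mutant and 74 (0.529%) were lower. With a fold of at least 1.5, 180 genes (1.29%) were higher and 383 (2.74%) were lower. Wild-type YTHDF2 was set against the same knockdown library, so the comparisons share it and are given side by side only. There, 282 genes (2.02%) were called 2-fold higher and 332 (2.37%) were called 2-fold lower, and at 1.5-fold 973 (6.95%) were higher and 819 (5.85%) lower. Among the 6315 genes that averaged 1000 reads or more, where counting error is small, the median size of the log2 ratio was 0.11 for mutant over knockdown and 0.16 for wild type over knockdown. Over the 6 possible pairs of libraries, it was lowest for mutant over knockdown and highest, at 0.21, for mutant over wild type.

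**Figure D1:**
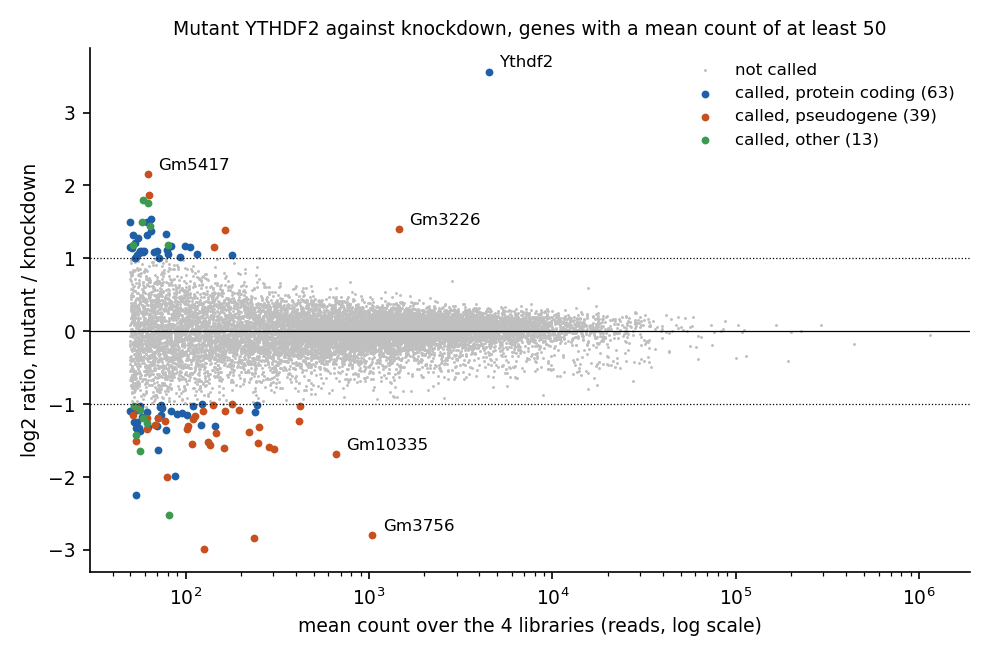
Log2 ratio of the mutant to the knockdown library (vertical axis) against the mean count over the 4 libraries (horizontal axis, log scale), with 1 point per gene and dotted lines at 2-fold. *Ythdf2* stands alone at 3.56 among genes with high counts, most other called genes have mean counts under 200, and the called pseudogenes lie mainly below 0.

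Most called genes had few reads. Among the 10817 genes that averaged 200 reads or more, only *Ythdf2* and the pseudogene *Gm3226* were called 2-fold higher, and 12 genes were called 2-fold lower. Of those 12, 10 were pseudogenes, and the other two were *Xlr5c*, an X-linked gene of a lymphocyte-regulated family, and the mitochondrial gene *ATP8*. Among those that averaged 1000 reads or more, the genes called 1.5-fold higher were *Ythdf2*, *Gm3226*, *Gapdh* and *Gm4340*. At this depth 56 genes were called 1.5-fold lower, 45 of them protein coding. With ratios corrected for GC content and exon length, 2 of the 43 coding genes with a GC value still passed.

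Pseudogenes made up 5.49% of the genes compared but 45.9% of the genes called 2-fold lower (34 of 74) and 12.2% of those called 2-fold higher (5 of 41). These are mostly processed copies of mRNAs inserted elsewhere in the genome, and they differ from the parent gene at few bases. Of the 39 called pseudogenes, 38 had a transcript in the GENCODE vM21 annotation, and 37 of these matched a protein-coding transcript over at least 50% of their length, with a median identity of 99.2% (89.8% to 100%). For 20 of the 37 the closest coding gene encoded a ribosomal protein. Reads that aligned to several places were left out by the authors, so reads that fit a copy and its parent equally were not counted. The exons counted can reach beyond the aligned transcript. *Gm12918* had no mismatch to *Rpl13* over 636 aligned bases, and it has 724 bases of exon. Which bases the counted reads cover was not examined. Several copies shared a closest coding gene, and the 28 distinct coding genes among those compared had a median log2 ratio of -0.38 themselves, with values from -0.66 to 0.59.

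The strongest case was a pair of copies of *Tuba1b*, which encodes an alpha-tubulin of the microtubules. *Gm3756* (chromosome 9, 31846590 to 31848151) had 197 reads in the scrambled control, 1803 in the knockdown, 1938 in the wild-type rescue and 230 in the mutant. Its log2 ratio of mutant to knockdown was -2.79 (-3.09 to -2.51). *Gm3226* (chromosome 13, 112730119 to 112731674) moved the other way, at 2080, 878, 833 and 2053 reads in the same order, which gave 1.402 on the log2 scale (1.24 to 1.57). For both copies the mutant library was near the scrambled control, and the wild-type rescue was near the knockdown. Added together, the copies held 2277, 2681, 2771 and 2283 reads, and the log2 ratio of their sum was -0.06 (-0.17 to 0.06). *Tuba1b* itself was at 31917, 35198, 35044 and 28177 reads, which gave -0.14 (-0.18 to -0.11). Each copy was 98.7% identical to *Tuba1b*, with 17 mismatches over 1356 aligned bases for *Gm3756* and 11 over 1349 for *Gm3226*.

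The same order of libraries was seen for other copies. *Rps10-ps1*, a copy of the ribosomal protein gene *Rps10*, had 77, 430, 388 and 53 reads in the scrambled control, knockdown, wild-type rescue and mutant libraries (log2 ratio of mutant to knockdown -2.83, -3.52 to -2.28). *Gm7432*, a copy of *Rps2*, had 22, 218, 237 and 24 reads (-2.98, -4.00 to -2.14). *Gm10335*, which differs from *Rpl23a* at 1 of 468 bases, had 391, 977, 994 and 268 reads (-1.69, -1.98 to -1.41). In each the knockdown and wild-type rescue libraries were high and the scrambled control and mutant libraries were low. A copy of *Gapdh* behaved otherwise: *Gm13292* had 50, 174, 53 and 38 reads, so that the knockdown alone was high, although *Gapdh* was lowest in the knockdown. *Gm5417*, a copy of *Vkorc1l1*, which encodes a vitamin K epoxide reductase, stood apart in the mutant alone, at 32, 37, 34 and 147 reads (2.15, 1.46 to 3.05). *Vkorc1l1* went the other way, at 383, 405, 376 and 270 reads (-0.41, -0.73 to -0.08). *Gm5417* differs from *Vkorc1l1* at 1 of 438 aligned bases, although its exon in the count table has 1108 bases. A stretch of 60 bases around that base shows how little separates the aligned parts, with the base in capitals. It covers bases 421 to 480 of the *Vkorc1l1* coding sequence (GENCODE vM21, mm10, transcript strand). The same length of *Rps10* (bases 226 to 285 of its coding sequence) is shown beside its copy, with the 3 bases that differ in capitals.
Vkorc1l1: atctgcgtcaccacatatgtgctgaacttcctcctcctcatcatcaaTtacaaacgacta
Gm5417: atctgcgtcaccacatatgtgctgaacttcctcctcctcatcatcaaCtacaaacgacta
Rps10: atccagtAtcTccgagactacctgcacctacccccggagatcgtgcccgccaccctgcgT
Rps10-ps1: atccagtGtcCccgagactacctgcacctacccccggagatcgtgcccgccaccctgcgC

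A pair of similar coding genes also had opposite ratios. *Rsph3a* and *Rsph3b*, which encode a radial spoke protein of cilia, lie on chromosome 17 and are 96.6% identical over the aligned transcript. *Rsph3a* had 68, 141, 108 and 31 reads in the scrambled control, knockdown, wild-type rescue and mutant libraries (-1.99, -2.84 to -1.15), and *Rsph3b* had 76, 51, 70 and 91 (1.00, 0.28 to 1.75). Their sum had a log2 ratio of -0.48 (-0.97 to 0.00), so the pair did not cancel as the tubulin copies did, and *Rsph3a* was lower in the mutant than in the scrambled control as well. These pairs were picked after their values were seen. Which copy a read belongs to is uncertain for all these genes, and the part of read placement in their ratios was not tested.

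**Figure D2:**
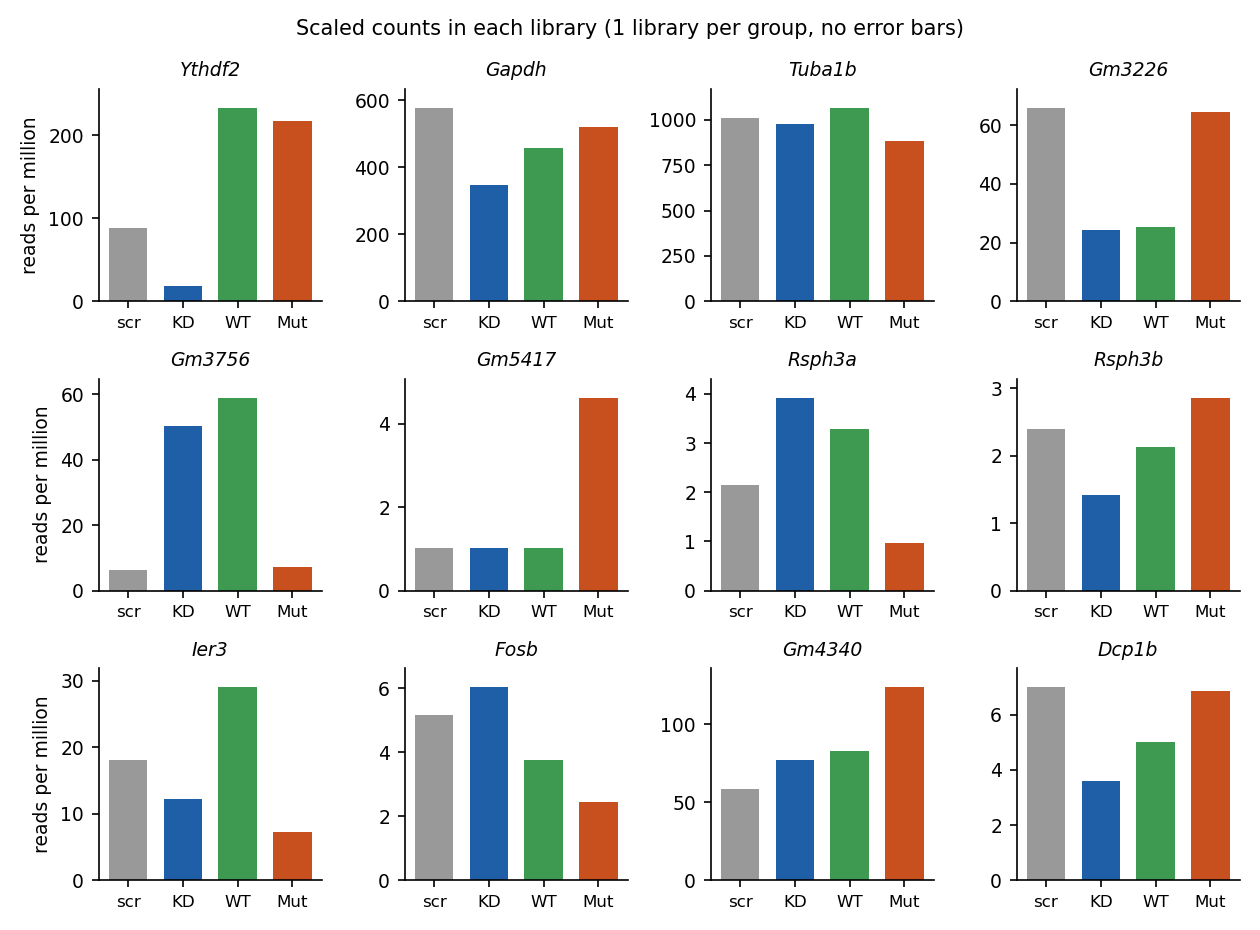
Scaled counts (CPM, vertical axis from 0) of 12 genes in the scrambled control (scr), knockdown (KD), wild-type rescue (WT) and mutant (Mut) libraries, 1 library each and hence no error bars. *Gm3226* and *Gm3756* show opposite patterns that pair the mutant with the scrambled control, whereas *Tuba1b* is nearly level.

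The ratio of mutant to knockdown also followed the length of the transcript. Genes with up to 500 bases of exon had a median log2 ratio of -0.38 (176 genes), those of 500 to 1000 bases -0.34 (742 genes), and those of 1000 to 1500 bases -0.17 (1054 genes). The median was 0.01 between 2500 and 4000 bases and 0.08 above 7000 bases. Short transcripts were therefore lower in the mutant library and long ones slightly higher. Genes called 2-fold lower had a median exon length of 1257 bases, those called 2-fold higher 4078 bases, and all genes compared 3680 bases. GC content moved less, from a median log2 ratio of 0.05 at up to 42% GC to -0.11 above 58% GC. For wild type over knockdown the length medians stayed between -0.06 and 0.06, but the GC medians ran from -0.22 at up to 42% GC to 0.18 above 58% GC, a wider range than for the mutant and of the opposite direction. The correction for both properties covers the 13281 genes with a GC value, which hold 68 of the 74 genes called 2-fold lower and 353 of the 383 at 1.5-fold. With corrected ratios, 39 and 164 of the 13281 genes were called lower, and 45 and 203 higher. Corrected for exon length alone, over all 13995 genes, 50 and 192 were lower and 61 and 240 higher.

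**Figure D3:**
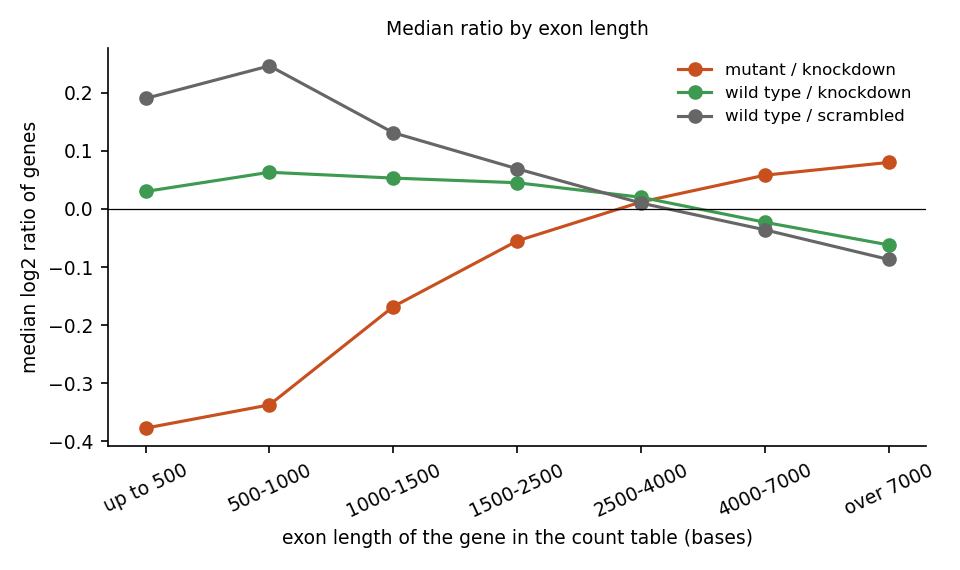
Median log2 ratio of genes (vertical axis) in 7 classes of exon length (horizontal axis, bases) for mutant over knockdown, wild type over knockdown and wild type over scrambled control. Mutant over knockdown climbs from -0.38 in the shortest class to 0.08 in the longest, and wild type over scrambled control runs the other way from 0.19 to -0.09.

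The wild-type rescue and scrambled control libraries, which take no part in the comparison, were set against each other at the same genes. Over all genes, 0.736% were called 2-fold higher and 0.307% 2-fold lower in the wild-type rescue, and 3.1% and 1.54% at 1.5-fold. Of the 74 genes lower in the mutant than in the knockdown, 16 (21.6%) were called higher in the wild-type rescue than in the scrambled control and 3 (4.05%) lower. At 1.5-fold, 87 of the 383 lower genes (22.7%) were called higher and 13 (3.39%) lower, and 308 (80.4%) had more scaled reads in the wild-type rescue, against 50.4% of all genes. These ratios trend with exon length in opposite directions. Both ratios were then corrected for GC content and exon length. The share with more scaled reads in the wild-type rescue was then 53.8% of 39 genes at 2-fold. At 1.5-fold it was 67.7% of 164, against 49.7% of all. Of the 39 genes, 8 (20.5%) were called higher and 1 (2.56%) lower, where 0.542% and 0.211% of all genes were. Of the 164 genes, 24 (14.6%) were called higher and 6 (3.66%) lower, where 2.02% and 1.2% of all genes were. Without pseudogenes the tendency at 2-fold was gone in the median, which went from 0.48 over the 74 genes to -0.02 over the remaining 40. Of these 40, 5 (12.5%) were called higher and 3 (7.5%) lower, where 0.567% and 0.242% of all genes without pseudogenes were. At 1.5-fold, 79.0% of the remaining 276 genes had more scaled reads in the wild-type rescue. Of these 276, 47 were called higher and 11 lower, where 2.69% and 1.37% of all genes without pseudogenes were. Corrected as well, 67.2% of 125 genes had more scaled reads in the wild-type rescue, and 11 (8.8%) were called higher and 5 lower. Among all genes without pseudogenes, 1.8% and 0.935% were then called higher and lower. The 41 genes higher in the mutant had a median of -0.18 in wild type over scrambled control, with 2 (4.88%) called higher and 5 (12.2%) lower. At 1.5-fold, 9 of the 180 higher genes (5.0%) were called higher and 20 (11.1%) lower. With both ratios corrected, 10 of 203 (4.93%) were called higher and 22 (10.8%) lower, where 2.02% and 1.2% of all genes were. Without pseudogenes as well, these were 10 (6.21%) and 8 (4.97%) of 161, where 1.8% and 0.935% of all were. What the mutant and scrambled control libraries have in common was not tested.

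Genes higher in the mutant were mainly those with few reads in the knockdown. Of the 41, the knockdown was the lowest of the 4 libraries in 34 and the mutant the highest in 21. Among all genes compared the knockdown was lowest in 23.5% and the mutant highest in 26.7%, and since the call rests on these libraries, such orders are partly fixed by it. *Ticam2*, which encodes an adaptor of Toll-like receptor signalling, had 78, 30, 73 and 78 reads in the scrambled control, knockdown, wild-type rescue and mutant libraries (1.54, 0.66 to 2.52). *Kcnc4*, a voltage-gated potassium channel, had 48, 32, 85 and 81 (1.501, 0.63 to 2.43), and *Filip1l* had 33, 30, 61 and 76 (1.501, 0.62 to 2.49). *Slc22a21*, a carnitine transporter gene, had 67, 46, 96 and 103 (1.33, 0.62 to 2.13). In these genes the wild-type and the mutant rescue were both above the knockdown, with ratios of wild type to knockdown of 1.395, 1.52, 1.14 and 1.18. Both ratios share the knockdown library, and the genes were picked by a ratio to it, so their agreement is partly fixed. Over the 41 genes the median ratio of wild type to knockdown was 0.93. *Ppm1e*, a protein phosphatase, had 117, 73, 90 and 144 reads (1.15, 0.58 to 1.80). The long noncoding RNAs *Gm46060* and *Gm41498* had 84, 25, 47 and 78 reads (1.80, 0.91 to 2.95) and 92, 25, 55 and 76 reads (1.76, 0.87 to 2.91). All of these rest on at most 73 reads in the knockdown and have wide intervals. With more reads, *Gapdh*, the glycolytic enzyme, had 18203, 12469, 15054 and 16567 reads (0.59, 0.54 to 0.63). *Gm4340*, a gene of the 2-cell list, had 1856, 2771, 2733 and 3940 (0.68, 0.58 to 0.78), and here the mutant was above all other libraries.

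Among coding genes, those called 2-fold lower in the mutant were also thinly counted. Of the 74 genes called lower at 2-fold, 33 were protein coding, and 20 of the 32 with a GC value were still called once GC content and exon length were corrected for. *Fosb*, an immediate early transcription factor of the AP-1 family, had 163, 217, 124 and 78 reads in the scrambled control, knockdown, wild-type rescue and mutant libraries (-1.29, -1.86 to -0.75). *Xlr5c* had 372, 244, 258 and 107 reads (-1.01, -1.49 to -0.53), so that the mutant was the lowest library. *Susd5* (174, 117, 155 and 42 reads, -1.29, -2.08 to -0.55) and *Vps37d*, an ESCRT-I subunit (59, 45, 103 and 8 reads, -2.25, -4.28 to -0.73), were likewise low in the mutant alone. *Xlr5c*, *Susd5* and *Vps37d* were chosen after their values were seen. The unclassified *LOC118567384* had 129, 106, 72 and 16 reads (-2.52, -3.84 to -1.47). Over the 74 lower genes the mutant was the lowest of the 4 libraries in 64, where 25.8% of all genes compared had it lowest. The call rests on the mutant library, so this order is partly fixed by it.

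Pseudogenes and paralogs were also found among the higher genes. *Gm9029* had 107, 29, 22 and 95 reads in the scrambled control, knockdown, wild-type rescue and mutant libraries (1.87, 1.07 to 2.93), *Gm17082* had 222, 109, 73 and 254 (1.39, 0.94 to 1.90), and *Rab7-ps1* had 198, 94, 96 and 186 (1.16, 0.64 to 1.70). In all 3 the mutant and the scrambled control were high and the other libraries low, the same order as for *Gm3226*. *Naip5* and *Naip6*, similar genes of inflammasome sensors on chromosome 13, moved together, with 54, 33, 58 and 68 reads (1.21, 0.37 to 2.22) and 49, 34, 47 and 76 reads (1.32, 0.48 to 2.25). Their sum had a log2 ratio of 1.27 (0.65 to 1.89). *Il1r1*, the receptor for interleukin 1, had 87, 89, 121 and 164 reads (1.05, 0.53 to 1.64), and the mutant was highest there. The *Naip* genes and *Il1r1* were picked after their values were seen.

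Further genes outside the lists, picked after their values were seen, show the other orders that occurred. *Cxcl14*, a chemokine, had 89, 90, 145 and 36 reads in the scrambled control, knockdown, wild-type rescue and mutant libraries (-1.14, -2.02 to -0.33). *Itga7*, a laminin-binding integrin, had 69, 93, 119 and 32 (-1.35, -2.27 to -0.50). *Card19* had 271, 176, 402 and 79 (-0.98, -1.54 to -0.41), with a wild-type to knockdown ratio of 1.32. These genes were lowest in the mutant and highest in the wild-type rescue. *Rspo1*, a secreted activator of Wnt signalling, had 49, 114, 37 and 44 reads (-1.19, -1.98 to -0.46), and *Rn7sk*, the small nuclear RNA that holds P-TEFb, had 29, 121, 41 and 34 (-1.64, -2.51 to -0.85). In this pair the knockdown alone was high, and the wild-type to knockdown ratios were -1.48 and -1.42. *Timm13*, a chaperone of mitochondrial import with 1225 bases of exon, had 881, 1554, 1291 and 722 reads (-0.93, -1.11 to -0.75), and its corrected ratio was -0.66.

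The m6A pathway and the decay machinery were nearly level. Among 15 readers, *Ythdf2* was the 1 gene called at 1.5-fold, and the median log2 ratio was 0.05 beside 0.01 over all genes. *Ythdf1* had 3855, 5992, 4325 and 5567 reads in the scrambled control, knockdown, wild-type rescue and mutant libraries, a mutant to knockdown ratio of 0.07 (-0.004 to 0.15) and a wild-type to knockdown ratio of -0.34. *Ythdf3* had 3985, 6190, 3711 and 5317 reads, with ratios of -0.04 (-0.12 to 0.03) and -0.61. Both paralogs were thus near the knockdown level in the mutant library. None of 14 writers and erasers was called, and their ratios ran from -0.27 for *Mettl5*, an rRNA methyltransferase, to 0.19 for the demethylase *Fto*. Of the 15 genes of the CCR4-NOT deadenylase and its adaptors 13 were above 0, with a median of 0.09, or 0.04 when corrected for GC content and exon length, and no call. *Cnot1*, the scaffold of the complex, had 29444, 28330, 25173 and 29983 reads (0.26, 0.23 to 0.29), with a wild-type ratio of -0.04. Of 28 other decay factors 1 was called: *Dcp1b*, a cofactor of the decapping enzyme, had 221, 129, 165 and 218 reads (0.93, 0.49 to 1.41). *Upf1*, the helicase of nonsense-mediated decay, had a ratio of -0.02 (-0.11 to 0.07), and *Rida*, also known as Hrsp12, which bridges YTHDF2 to RNase P and MRP, had 755, 935, 788 and 664 reads (-0.32, -0.53 to -0.11).

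Most genes of the 2-cell embryo were slightly below the knockdown and well above the wild-type rescue. The list held 55 symbols, and 40 of its genes were compared. It overlaps the genes that the study shows for these libraries, so its direction is not independent evidence. The median log2 ratio of mutant to knockdown was -0.24, and that of wild type to knockdown was -1.47. In the mutant 33 genes were below 0 and 7 above, where 47.9% of all genes compared were below 0. The interval lay below 0 for 22 of the 40 and above 0 for 2, where 15.6% and 18.2% of all genes did. At 1.5-fold, 3 genes were called lower and 1 higher in the mutant, where 2.74% and 1.29% of all genes were. In the wild-type rescue 38 were called lower, where 5.85% of all genes were. Over the scrambled control the median was 1.63 for the knockdown and 1.51 for the mutant. In bulk RNA, fewer 2C-like cells and less RNA per cell cannot be told apart. *Spz1*, a basic helix-loop-helix factor, had 34, 310, 56 and 141 reads in the scrambled control, knockdown, wild-type rescue and mutant libraries (-0.96, -1.40 to -0.55). *Tcstv3* had 66, 280, 107 and 156 (-0.67, -1.09 to -0.26) and *Gm21761* 1696, 9235, 2837 and 5302 (-0.62, -0.69 to -0.56). In these 3 genes the mutant lay between the knockdown and the wild-type rescue. *Zscan4d*, of a zinc finger family that marks 2C-like cells, had 1463, 6266, 1792 and 4814 reads (-0.20, -0.28 to -0.13), *Zscan4c* 834, 3279, 1023 and 2503 (-0.21, -0.32 to -0.11) and *Zscan4a* 1427, 4961, 1381 and 4107 (-0.10, -0.18 to -0.01). *Zscan4f* was not lower, with 356, 1315, 302 and 1326 reads (0.19, 0.03 to 0.34). *Usp17la*, a deubiquitinase, had 357, 1214, 412 and 982 (-0.13, -0.30 to 0.05). Members of these families share sequence, and their read assignment is uncertain. *Duxf3*, under the count minimum, had 10, 46, 16 and 18 reads, so there the mutant was near the wild-type rescue and not the knockdown. The corrected median of the list was -0.15. Among 33 regulators of the 2C-like state none was called, and the median was 0.06.

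Most pluripotency genes differed from the knockdown by small folds. The interval lay above 0 for 6 of the 18 naive and core genes and below 0 for 9. Of 18 naive and core genes 1 was called at 1.5-fold: *Dppa5a*, an RNA-binding protein of ESCs with 641 bases of exon, had 23294, 33649, 33881 and 18599 reads in the scrambled control, knockdown, wild-type rescue and mutant libraries (-0.68, -0.71 to -0.64). *Utf1*, a chromatin factor, had 4866, 6593, 5836 and 4246 (-0.46, -0.54 to -0.38). *Pou5f1* had a ratio of -0.05 (-0.09 to -0.02), *Sox2* of -0.09 (-0.14 to -0.04) and *Nanog* of 0.07 (0.04 to 0.11). The median of the list was -0.05, and 0.04 after the correction, so its sign depended on it. Of 15 formative and primed genes 12 were below 0, with a median of -0.20 and no call.

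**Figure D4:**
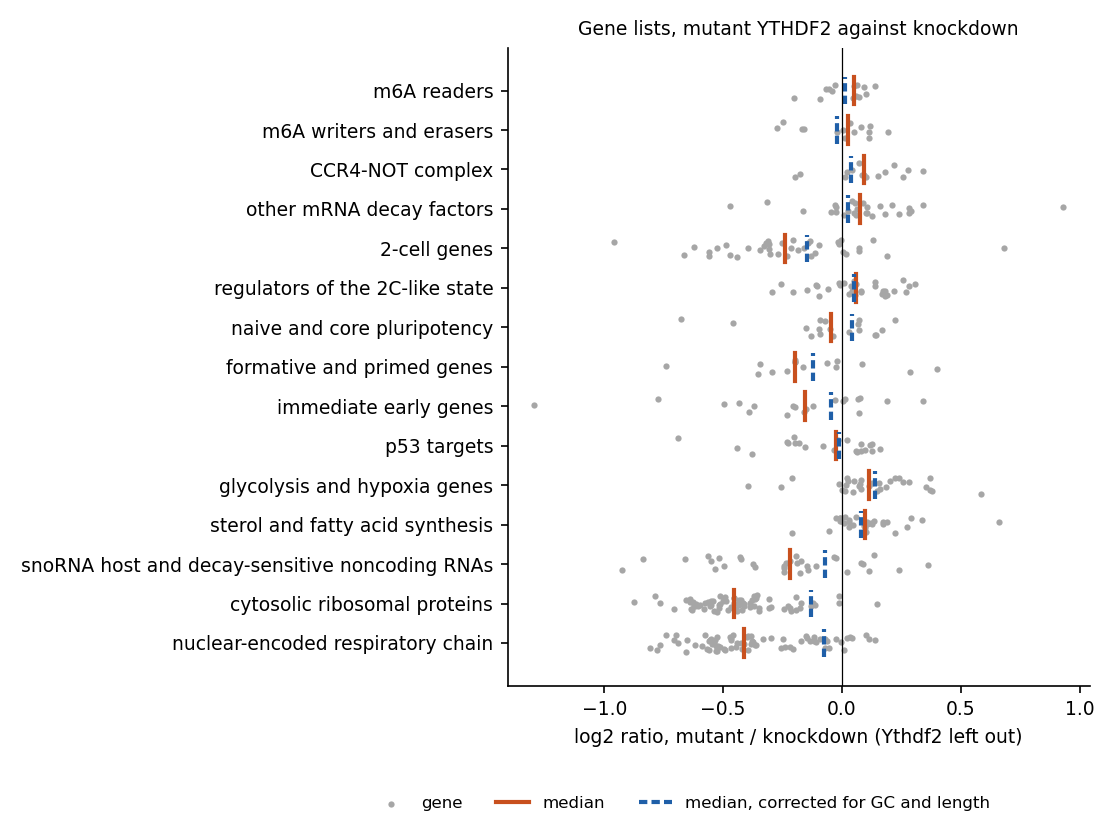
Log2 ratio of mutant to knockdown (horizontal axis) for the genes of 15 lists (grey points, 1 per gene, *Ythdf2* left out), with the list's median (orange) and the same median corrected for GC content and exon length (blue, dashed). The medians of ribosomal proteins and the respiratory chain lie near -0.4 and move close to 0 when corrected, the 2-cell genes stay below 0, and the glycolytic genes stay above it.

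Genes of short transcripts made up the lists furthest below 0. Of 76 cytosolic ribosomal protein genes 75 were below 0, with a median of -0.45 and 16 called lower at 1.5-fold. Over all genes compared, 47.9% were below 0 and 2.74% were called lower. *Rps19* had 7069, 11705, 11245 and 5652 reads in the scrambled control, knockdown, wild-type rescue and mutant libraries (-0.87, -0.94 to -0.81), and *Rplp1*, of the ribosomal stalk, had 12883, 19353, 20084 and 9927 (-0.79, -0.84 to -0.74). *Rpl3*, the 1 gene above 0, had 33994, 25594, 32444 and 25090 (0.15, 0.11 to 0.18). The mutant and scrambled control were low and the other libraries high for *Rps19* and *Rplp1*, the order seen for *Gm3756*. Of 75 nuclear genes of the respiratory chain 68 were below 0, with a median of -0.41. Of the 75, 11 were called lower, where 2.74% of all genes were. Among them was the complex I subunit *Ndufa5* (342, 603, 519 and 305 reads, -0.81, -1.10 to -0.53). The median exon lengths of these lists were 848 and 936 bases. Among all genes with 500 to 1000 bases of exon, 17.8% were called lower at 1.5-fold. Corrected for GC content and exon length the medians were -0.13 and -0.08. In wild type over scrambled control, which shares no library with the comparison, the medians were 0.36 and 0.36. With 1 library per group, a trend with transcript length in a library cannot be told apart from a change made by the mutant.

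All 13 mitochondrially encoded genes were below 0, with a median of -0.41, and -0.14 when corrected for exon length. *ATP8*, an ATP synthase subunit whose gene overlaps its neighbour, had 285, 282, 278 and 116 reads in the scrambled control, knockdown, wild-type rescue and mutant libraries (-1.10, -1.57 to -0.65). The longer *COX1*, of cytochrome c oxidase, had 1265419, 1234412, 1010930 and 1057443 (-0.05, -0.05 to -0.04). The longest gene, *ND5*, with 1824 bases, had -0.02. *ND4L*, with 297 bases, had -0.35, so that the order did not follow length throughout. Among 33 snoRNA hosts and other noncoding RNAs sensitive to decay the median was -0.22, and -0.07 when corrected, and 3 were called lower: *Platr27* (197, 142, 203 and 66 reads), *Snhg8* (193, 283, 312 and 140) and *Platr3* (182, 247, 263 and 138).

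Glycolytic and hypoxia-responsive genes were slightly above the knockdown. Of 31 genes 27 were above 0, with a median of 0.11, where 52.1% of all genes compared were above 0, and the corrected median was 0.14. *Gapdh* was the 1 gene called. *Egln3*, a prolyl hydroxylase of the hypoxia response, had 1283, 1089, 1447 and 1254 reads in the scrambled control, knockdown, wild-type rescue and mutant libraries (0.38, 0.21 to 0.55), and *Ndrg1*, a hypoxia-induced gene, had 1584, 900, 1905 and 1031 (0.37, 0.19 to 0.56). *Higd1a*, a hypoxia-induced mitochondrial protein, had 978, 1604, 1827 and 1080 (-0.39, -0.55 to -0.23). The median of wild type over knockdown for this list was 0.46, with 11 of the 31 genes called higher, where 6.95% of all genes were. For sterol and fatty acid synthesis 24 of 31 genes were above 0, with a median of 0.10.

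The immediate early gene *Ier3* was lower in the mutant and higher in the wild-type rescue than in the knockdown, and *Fosb* was lower in both. Of 20 genes 13 were below 0, with a median of -0.15 and, when corrected, of -0.04. *Fosb* was called at 2-fold, and *Ier3*, which encodes a regulator of cell survival, at 1.5-fold with 572, 441, 954 and 228 reads in the scrambled control, knockdown, wild-type rescue and mutant libraries (-0.77, -1.11 to -0.44). *Fos* had 3623, 1323, 2551 and 829 (-0.50, -0.68 to -0.32) and *Junb* 1336, 1234, 1729 and 810 (-0.43, -0.61 to -0.25). The ratios of wild type to knockdown were 1.24 for *Ier3*, 1.07 for *Fos* and 0.61 for *Junb*, but -0.68 for *Fosb*. The mutant was again the lowest and the wild-type rescue the highest library for *Socs3*, a feedback inhibitor of LIF signalling (5127, 4478, 6154 and 3292 reads, -0.27, -0.36 to -0.17), and for the BMP target *Id1* (1137, 1051, 1248 and 692 reads, -0.43, -0.63 to -0.23). Neither reached 1.5-fold. *Ociad2*, which is on the LIF list, was called lower with 500, 605, 641 and 295 reads (-0.86, -1.15 to -0.56), and its corrected ratio was -0.86. Of the heat shock genes, the inducible chaperones *Hspa1a* and *Hspa1b* were called lower, with 104, 459, 218 and 215 reads (-0.92, -1.26 to -0.58) and 215, 458, 332 and 258 reads (-0.65, -0.97 to -0.33). For both genes the knockdown was the highest and the scrambled control the lowest library.

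Single genes were called at 1.5-fold in some further lists. *Gdf15*, a p53 target and stress cytokine, had 98, 188, 137 and 103 reads in the scrambled control, knockdown, wild-type rescue and mutant libraries (-0.69, -1.20 to -0.17), and the median of 22 p53 targets was -0.03. Of the interferon genes, *Oas1a*, an RNA sensor, was higher with 218, 102, 190 and 153 reads (0.76, 0.22 to 1.29), and *Bst2*, an antiviral tether, was lower with 56, 103, 70 and 52 reads (-0.80, -1.56 to -0.12). The imprinted cell cycle inhibitor *Cdkn1c* had 94, 166, 132 and 86 reads (-0.77, -1.34 to -0.22), the neural factor *Sox1* 116, 205, 164 and 117 (-0.63, -1.13 to -0.16), and *Cubn*, an endocytic receptor of the endoderm list, 18, 120, 23 and 63 (-0.75, -1.40 to -0.09). In *Gdf15*, *Bst2*, *Cdkn1c* and *Sox1* the mutant library was near the scrambled control. Of the replication-dependent histone genes, whose mRNAs lack a poly(A) tail, 3 of 59 were compared and *H4c9* was called lower (39, 163, 105 and 75 reads).

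In 16 of the 35 lists, with 268 members in all, no gene was called at 1.5-fold, and their medians lay between -0.20 and 0.13. These were the writers and erasers, CCR4-NOT, regulators of the 2C-like state, formative genes, mesendoderm, trophectoderm, fibroblast and germline markers, FGF-ERK, Nodal and BMP, Wnt, ATF4 and unfolded protein response, SR splicing factors, chromatin silencers, Y-linked genes and glutathione transferases. Markers of other lineages were sparse: 3 of 16 mesendoderm, 8 of 16 neural, 8 of 16 fibroblast, 12 of 20 primitive endoderm and 12 of 18 trophectoderm genes reached the count minimum. *Lefty2*, a Nodal inhibitor, had 842, 2119, 1431 and 1853 reads in the scrambled control, knockdown, wild-type rescue and mutant libraries (-0.02, -0.15 to 0.11). Over genes averaging 200 reads or more, no chromosome with at least 10 such genes had a median further than 0.07 from 0, except the mitochondrial genome at -0.40.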

How the data were processed

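Poly(A)+ RNA-seq libraries of E14 ESCs (4 libraries, 1 per group, grouped by title) were analysed from the read counts per gene that the authors deposited. Per the file headers, featureCounts 2.0.3 was run by the authors over exons of the mm39 RefSeq annotation, without strand although the labels describe stranded libraries. It left out reads that aligned to several places or overlapped several genes. Antisense and overlapping genes are therefore uncertain. The submitters' processing notes name fastp 0.19.4, HISAT2 2.2.1, DESeq2 1.40.2 and mm10. Coordinates here are those of the table. The counts are of reads, so pairs were taken as reads divided by 2.

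Library sizes were scaled with TMM factors of edgeR 4.0.16 (R 4.3.3) from genes averaging 10 reads or more. A prior count of 0.5 was added before log2 ratios. Intervals of 95% (Clopper-Pearson on read pairs, scipy 1.17.1) and floors of 3 reads cover counting error only, since amplified reads are not independent molecules. A gene was called at 2-fold or 1.5-fold with an interval excluding 0. There was no replicate, so no test was run and no p-value is given. FPKM used the authors' exon lengths. GC content (13281 genes, 94.9%) and pseudogene sequences came from GENCODE vM21 (mm10), matched by name, with blastn 2.17.0 for the closest coding transcript, and gene classes (13889 genes) from RefSeq GRCm38.p6. The correction was a spline fit (5 degrees of freedom each) on GC content and exon length. The script was tested on simulated counts. Members and the 35 gene lists (897 symbols, 885 matched, 734 compared) were chosen with earlier results of these data known. The named genes were the YTHDF genes, the 2-cell, pluripotency and decay genes that the study's text names, the 15 highest and 15 lowest by the interval bound nearest 0, and in each list up to 4 genes at each end or called at 1.5-fold. The text gives a selection of these. Some results are not reported here.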

Additional observations from a re-analysis of the deposited data

How the results depend on the processing

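No paired analysis was possible because each group had 1 library. The scaling (by DESeq2 1.42.0, by the upper quartile or by total counts), a prior count of 5, the fold without the interval and leaving out chromosomes 12 and Y kept every count of called genes within 1.5 times; the 41 higher and 74 lower genes at 2-fold became 32 to 42 and 60 to 76. The *Ythdf2* ratio lay between 3.55 and 3.57, and none of the named single genes changed sign under another scaling or prior. The medians of 11 of the 35 lists, all between -0.099 and 0.037, changed sign under an alternative. The count minimum moved the counts most. At a minimum of 10 mean reads, 218 genes were higher and 266 lower at 2-fold, and 373 and 593 at 1.5-fold. At a minimum of 1 these were 300, 340, 455 and 667. At a minimum of 200 they were 2, 12, 32 and 166. Corrected for GC content and exon length, over the 13281 genes with a GC value, 39 genes were lower at 2-fold and 164 at 1.5-fold, and the medians were -0.13 for ribosomal proteins, -0.076 for the respiratory chain and 0.043 for pluripotency genes. Chosen after seeing the data, correction for exon length alone left 192 genes lower at 1.5-fold and medians of -0.14, -0.087 and 0.013, and leaving out pseudogenes left 40 lower at 2-fold. The cause of these shifts was not tested. Depth limits the calls: most 2-fold genes had under 200 reads.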
